A study of Mus musculus with 12 samples.

Results

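Pleiotrophin (Ptn) and midkine (Mdk), a pair of heparin-binding growth factors, were followed with the genes of their receptors and carriers, Alk, Ptprz1, the syndecans Sdc1 to Sdc4 and Ncl. The 9 genes were taken by name, with all probe sets (groups of array probes against 1 transcript) annotated to them, which gave 26 of 45101 probe sets on the array. They were chosen by the measured levels of Ptn, which were lower in vesicles labelled Dlx5-null and higher in cells labelled as transfected with Dlx5. Those Ptn differences are therefore given as a description, with no test.

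Ptn and Mdk are small secreted proteins that bind heparan and chondroitin sulfate chains. They act on the receptor tyrosine phosphatase encoded by Ptprz1, and the receptor tyrosine kinase encoded by Alk has been described as a further receptor. Syndecans are transmembrane proteoglycans that hold such ligands at the cell surface, and nucleolin, the product of Ncl, is a nucleolar protein of ribosome production that can also bind both factors at the surface. Both growth factors are known from epithelia and mesenchyme of developing organs and from nervous tissue.

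RNA of 12 samples was measured on Affymetrix arrays, 2 arrays a group, as log2 expression values. Of these, 8 arrays held otic vesicles, the epithelial sacs that form the inner ear, from embryos labelled Dlx5-null (Dlx5 is a homeobox transcription factor gene, and the allele is not stated) and from wild-type embryos, each at the embryonic stages E10.5 and E10, in days of gestation. Each replicate pooled 4 to 8 vesicles that had been treated with dispase to remove mesenchyme. The other 4 arrays held independent cultures of 2B1 cells, a conditionally immortal line of otic vesicle origin. They had been grown at 32 °C with gamma-interferon and given Dlx5 plus GFP, or an empty vector with GFP alone, by transient transfection, then were held at 37 °C for 4 days without gamma-interferon. The sources used here do not state the strain, the sex of the embryos or the share of cells that took up the vector. The 2 sets of arrays appear to have been normalized separately, so no level was compared between vesicles and 2B1 cells, nor between probe sets.

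The Dlx5 probe set was higher in the arrays labelled Dlx5-null (7.97 and 7.97 at E10.5, 7.27 and 8.02 at E10) than in wild-type arrays (6.12 and 6.11 at E10.5, 6.20 and 6.30 at E10). Its difference over both stages was 1.625 (SE 0.18, limma adjusted p = 0.0438). It was the only one higher in labelled-null of the 4 probe sets called in that contrast. In 2B1 the Dlx5 probe set was at 5.14 and 4.80 with Dlx5 and at 4.66 and 4.79 with the empty vector. Where its probes lie relative to the deleted or transfected part is not known here, so it may check no label, and the directions that follow rest on the labels. Both E10 replicate 1 arrays stood apart, with a narrower spread of values (SD 2.33 in labelled-null and 2.32 in wild type) than the other E10 arrays (2.45 and 2.47) and lower Xist (4.98 and 5.07 against 9.36 and 9.72). Their mean of otic epithelial markers was lower too (8.03 and 8.11 against 8.65 and 8.76). At E10.5, labelled-null replicate 2 had a somewhat narrow spread (SD 2.38) beside labelled-null replicate 1 (2.45) and wild type (2.46 and 2.47). Of the 2B1 cultures, empty-vector replicate 1 had a narrower spread (SD 2.19) than vector replicate 2 (2.30) and the Dlx5 cultures (2.31 and 2.29). Its mean was also lower (5.76 against 5.82 and 5.81), and it enters every 2B1 difference below. The Y-linked Eif2s3y was at 4.82 and 5.04 in labelled-null and 3.21 and 3.45 in wild-type vesicles at E10.5, and at 6.5 and 6.17 in labelled-null and 7.04 and 3.96 in wild-type vesicles at E10. The 14 otic epithelial markers measured were all above the limit under which the dimmest 25% of probe sets were left out of tests (4.65 in vesicles) in every vesicle group. In 2B1 cells 9 of the 14 were above that set's limit of 4.36 with Dlx5 and 11 with the empty vector, and Tbx1, Gbx2 and Hmx3 were under it in all 4 arrays.

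Ptn was lower in labelled-null than in wild-type vesicles at both stages, and higher in Dlx5-transfected than in empty-vector 2B1 cells, on 2 of its 3 probe sets. On the brightest, 1416211_a_at, its log2 level was 10.49 and 10.58 in labelled-null and 11.41 and 11.28 in wild-type vesicles at E10.5. At E10 it was 10.73 and 11.01 in labelled-null and 11.84 and 12.03 in wild-type vesicles. In 2B1 cells it was 10.18 and 10.12 with Dlx5 and 8.76 and 9.08 with the empty vector. All 4 labelled-null arrays thus lay under all 4 wild-type arrays, and both Dlx5 cultures over both vector cultures. The difference over both stages was -0.94 (SE 0.12), or 1.92-fold lower, and the difference in 2B1 cells was 1.23 (SE 0.18), or 2.35-fold higher. Leaving out single cultures gave 1.07 to 1.39 in 2B1 cells. In these bulk samples fewer cells of a type and less RNA per cell cannot be told apart.

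The probe set 1448254_at, annotated to the same cDNA record as the brightest, ran the same way at a lower signal. Its log2 level was 7.46 and 7.29 in labelled-null and 7.97 and 8.23 in wild-type vesicles at E10.5, and 8.21 and 7.88 in labelled-null and 9.08 and 8.64 in wild-type vesicles at E10. Within each stage the groups did not overlap, although labelled-null E10 replicate 1 lay level with the wild-type E10.5 arrays. In 2B1 cells it was 6.53 and 6.57 with Dlx5 and 4.83 and 5.62 with the empty vector, so that the vector cultures differed from each other by more than the Dlx5 cultures did. The differences were -0.77 (SE 0.14) in vesicles and 1.33 (SE 0.26) in 2B1 cells, where leaving out single cultures gave 0.93 to 1.72. Over the 8 vesicle arrays the 2 probe sets had a Pearson correlation of 0.85, as a description over arrays that share stage and genotype.

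The last Ptn probe set, 1443173_at, annotated to another sequence record, did not move with them (Pearson correlations of -0.26 with 1416211_a_at and 0.21 with 1448254_at). Its log2 level was 5.26 and 5.56 in labelled-null and 5.06 and 5.39 in wild-type vesicles at E10.5, and 5.92 and 5.41 in labelled-null and 5.72 and 5.16 in wild-type vesicles at E10. It was 5.84 and 5.78 with Dlx5 and 5.96 and 5.87 with the empty vector in 2B1 cells. The vesicle groups overlapped at both stages, and the differences of 0.21 (SE 0.17) and -0.11 (SE 0.16) were close to their errors. This was the dimmest of the 3, at the 38.7th percentile of probe sets in vesicles. The part of the transcript that it reads was not examined.

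**Figure D1:**
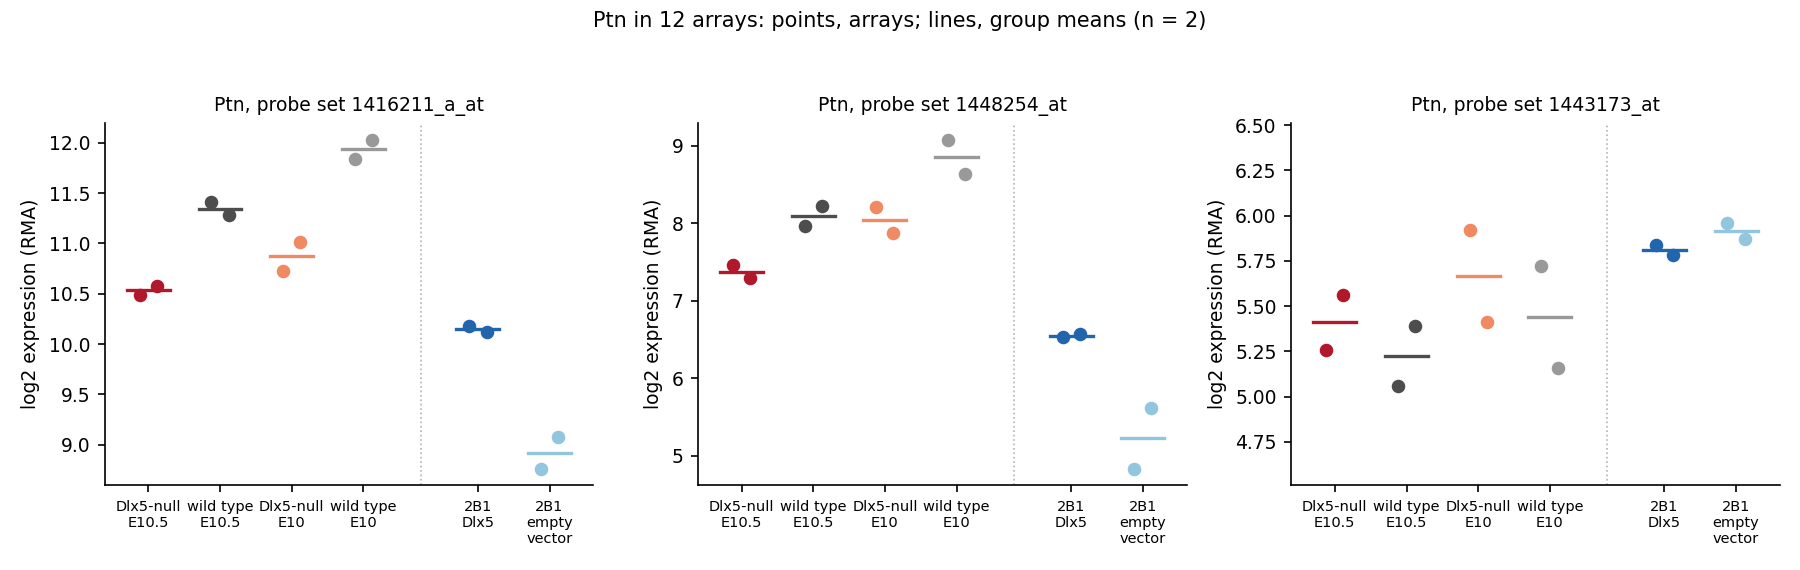
Log2 expression (RMA) of the 3 Ptn probe sets, on separate vertical axes, with points for the 12 arrays and lines for group means (n = 2); vesicles and 2B1 cells stand on either side of the dotted line and are not on a common scale. On 1416211_a_at and 1448254_at the labelled-null arrays lie under the wild-type arrays of their stage and the Dlx5 cultures over the vector cultures, and on 1443173_at the vesicle groups overlap.

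As background to these differences, 333 of the 24053 probe sets tested in both sets of arrays (1.38%) were lower in labelled-null arrays at both stages and higher in Dlx5 cultures without overlap of the groups. By size alone, the difference of 1416211_a_at ranked as number 52 from the lowest of 26218 in vesicles and number 15 from the highest of 26202 in 2B1 cells, and that of 1448254_at as number 86 and number 8. The genes were chosen by these same Ptn differences, so the ranks are a description alone and lend them no support. The marker genes of periotic mesenchyme ran mostly in the same directions, without any passing the test, 12 of 15 tested being lower in labelled-null vesicles (median -0.19 against -0.01 over all probe sets) and 11 of 13 being higher in Dlx5 cultures (median 0.34 against 0.04 over all probe sets). At an unadjusted p under 0.05 were 2 of the 15 (4.05% of all probe sets) and 5 of the 13 (11.1% of all). Of these 5, Col1a1 was lower with Dlx5 (-0.515). The mean log2 level of the mesenchyme markers was 6.58 and 6.43 in labelled-null and 6.72 and 6.62 in wild-type vesicles at E10.5, and 5.99 and 6.22 in labelled-null and 6.04 and 6.43 in wild-type vesicles at E10. It was 7.25 and 7.23 with Dlx5 and 6.92 and 7.16 with the empty vector. The lower vector value, 6.92, was that of replicate 1, the culture with the narrower spread of values. Over the limit were 13 of the 16 markers in both 2B1 groups and 15 of 16 in vesicles. Over both stages the other marker lists shifted in the labelled-null vesicles as well, again with 0 called by limma. The 10 neuroblast and neuron markers were all higher (median 0.34, 2 at an unadjusted p under 0.05, as were 4.05% of all probe sets). The 7 blood markers tested were all higher as well (median 0.45, 2 at that p), and 8 of 9 endothelial markers were lower (median -0.23, 3 at that p). The mean of the 8 blood markers measured was apart between the genotypes only at E10.5. It was 9.76 and 9.75 in labelled-null and 8.84 and 8.80 in wild-type vesicles there. At E10 it was 7.54 and 8.10 in labelled-null and 7.48 and 8.11 in wild-type vesicles. Of 14 otic epithelial markers 9 were lower (median -0.15, 2 at that p). The part of these cells in the Ptn and Sdc2 differences was not tested.

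The promoter windows of Ptn and of Ncl are shown because Ptn carries the difference above and Ncl had the largest difference between stages, given below. They run from 250 bases before to 50 bases after the RefSeq start (GRCm38.p6), at chr6:36810130-36810429 on the minus strand for Ptn and chr1:86359406-86359705 on the minus strand for Ncl. Capitals mark the CCAAT box in Ptn and the GC boxes (GGGCGG on either strand) in Ncl.
Ptn: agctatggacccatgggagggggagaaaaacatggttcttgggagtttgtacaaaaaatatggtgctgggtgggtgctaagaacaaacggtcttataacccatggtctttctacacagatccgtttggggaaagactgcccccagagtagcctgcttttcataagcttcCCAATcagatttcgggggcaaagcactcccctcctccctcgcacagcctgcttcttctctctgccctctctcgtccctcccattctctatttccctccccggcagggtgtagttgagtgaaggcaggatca
Ncl: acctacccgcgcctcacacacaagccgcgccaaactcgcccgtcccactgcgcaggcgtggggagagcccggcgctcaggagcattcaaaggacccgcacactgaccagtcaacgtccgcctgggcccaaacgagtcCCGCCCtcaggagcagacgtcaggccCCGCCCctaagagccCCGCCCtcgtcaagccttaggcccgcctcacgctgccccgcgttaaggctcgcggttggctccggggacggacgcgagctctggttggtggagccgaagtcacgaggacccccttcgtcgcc
TAATT, the core of homeodomain sites such as those of Dlx proteins, was searched on both strands and was in none of the 7 windows found for these genes (Ptn, Alk, Ptprz1, Sdc1, Sdc3, Sdc4 and Ncl), while 27.0% of all 32851 windows hold it. The GC box was in 6 of the 7, with Ptn as the exception, and in 35.7% of all windows. It occurs in Ncl 113, 87 and 72 bases before the start. CCAAT was found in Ptn, 81 bases before the start, and in Sdc1 at 82 bases, and in 37.4% of all windows. Such matches describe these letters alone.

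Sdc2, a syndecan gene well known from mesenchymal cells, had values that ran in the directions of Ptn in both systems, without passing the test in either. On its brightest probe set, 1448545_at, the log2 level was 6.83 and 6.40 in labelled-null and 7.15 and 6.85 in wild-type vesicles at E10.5. It was 6.16 and 6.79 in labelled-null and 6.98 and 6.96 in wild-type vesicles at E10. In 2B1 cells it was 9.78 and 9.62 with Dlx5 and 8.90 and 9.15 with the empty vector. The groups did not overlap in any of the 3 pairs (3.16% of all probe sets were so placed in vesicles, lower at both stages, and 27.5% in 2B1 cells, higher with Dlx5), although at both stages the labelled-null arrays differed from each other by more than the wild-type arrays did. The differences were -0.44 (SE 0.17, limma adjusted p = 0.999) over both stages and 0.68 (SE 0.17, limma adjusted p = 0.446) in 2B1 cells.

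Its probe set 1417012_at was at 5.66 and 5.22 in labelled-null and 5.87 and 5.96 in wild-type vesicles at E10.5, and at 5.14 and 5.54 in labelled-null and 5.74 and 6.15 in wild-type vesicles at E10. With Dlx5 it was at 7.34 and 7.34, and with the empty vector at 6.21 and 6.82. The groups were again apart in each pair, with differences of -0.54 (SE 0.16, limma adjusted p = 0.862) and 0.83 (SE 0.22, limma adjusted p = 0.446). Leaving out single cultures gave 0.52 to 1.13 in 2B1 cells. On 1417011_at the values were 6.62 and 6.40 in labelled-null and 6.98 and 6.66 in wild-type vesicles at E10.5, and 9.14 and 9.0 with Dlx5 and 8.08 and 8.37 with the empty vector. At E10 its labelled-null arrays (5.27 and 6.66) and wild-type arrays (5.77 and 7.03) overlapped, replicate 1 being the lower in each. Its differences were -0.37 (SE 0.33, limma adjusted p = 0.999) and 0.85 (SE 0.18, limma adjusted p = 0.446). The vesicle difference of 1417011_at moved with single E10 arrays. It was -0.08 and -0.64 when the first and the second labelled-null array was dropped, and -0.61 and -0.11 when the first and the second wild-type array was. With the level of Eif2s3y as a covariate it turned to 0.18, while those of 1448545_at and 1417012_at were -0.42 and -0.37. These 3 probe sets are annotated to 1 sequence record and are not independent measurements, and the last Sdc2 probe set, 1431474_at, lay under the limit in both sets of arrays.

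**Figure D2:**
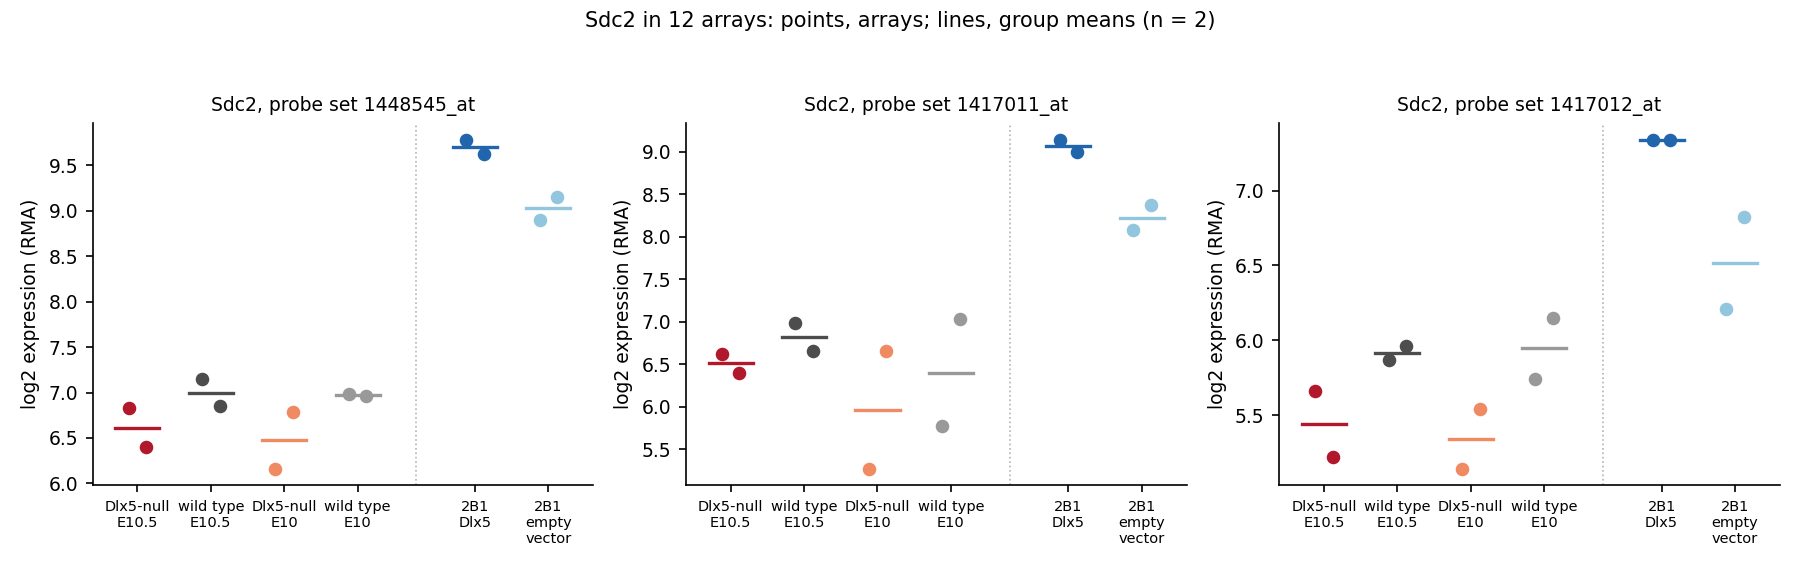
Log2 expression (RMA) of the 3 Sdc2 probe sets that were tested, drawn as for Ptn, with vesicles and 2B1 cells on either side of the dotted line. The Dlx5 cultures lie over the vector cultures on each probe set, and the E10 arrays of each genotype are widely spread on 1417011_at.

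Apart from Ptn, 19 probe sets of the other 8 genes were tested for the labelled-null difference over both stages, and 0 of them were called by limma, where 0.0153% of all 26218 probe sets were (4 in all). At an unadjusted p under 0.05 there were 2 of the 19, both of Sdc2, and 4.05% of all probe sets. With a trended, robust variance 10 probe sets of the whole array passed. At E10 and at E10.5 taken alone 0 of the 19 passed, where 0% and 0.00381% of all probe sets did, and 3 and 0 of the 19 were at an unadjusted p under 0.05, as were 3.28% and 2.82% of all. Since the genes were chosen with this contrast in view, nothing is read from these counts. Mdk, the other ligand, was at 13.39 and 13.40 in labelled-null and 13.45 and 13.31 in wild-type vesicles at E10.5. At E10 it was 12.61 and 13.04 in labelled-null and 12.35 and 12.86 in wild-type vesicles, and the difference was 0.12 (SE 0.15, limma adjusted p = 0.999), or 0.36 with Eif2s3y as a covariate. Dropping the second labelled-null E10 array gave 0.01, and dropping the first wild-type E10 array gave -0.005. The genotypes overlapped at both stages, and replicate 1 was the lower array of each genotype at E10.

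Among the receptors, Alk on its only probe set lay between 5.49 and 6.08 in labelled-null and between 5.35 and 6.06 in wild-type arrays (difference 0.03, SE 0.20). The phosphatase gene Ptprz1 was dim, with 1 of its 3 probe sets over the limit. On that one, 1427019_at, it was 4.94 and 4.32 in labelled-null and 5.58 and 5.16 in wild-type vesicles at E10, where the groups did not overlap, as for 18.3% of all probe sets. At E10.5 it was 5.07 and 4.99 in labelled-null and 4.81 and 5.08 in wild-type vesicles, which overlapped. The difference over both stages was -0.33 (SE 0.21, limma adjusted p = 0.999), and -0.12 and -0.16 on dropping the second labelled-null or the first wild-type E10 array. With Eif2s3y as a covariate it was -0.61. Ptprz1, Ptn and Dlx5 all lie on mouse chromosome 6 (RefSeq).

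Of the syndecan genes other than Sdc2, Sdc3 had the larger differences over both stages, with 1450027_at at 11.71 and 11.78 in labelled-null and 11.73 and 11.71 in wild-type vesicles at E10.5. At E10 it was 10.83 and 11.41 in labelled-null and 10.56 ± 0.08 in wild-type vesicles (SD, n = 2). The genotypes were thus apart at E10 and overlapped at E10.5, and the difference over both stages was 0.29 (SE 0.17, limma adjusted p = 0.999), or 0.12 without labelled-null E10 replicate 2. Its probe set 1436482_a_at gave 0.27 (SE 0.15). The 4 Sdc1 probe sets differed by -0.11 to 0.01 and the tested Sdc4 probe set by -0.15 (SE 0.21). For Sdc4 the single stages had opposite signs, 0.215 (SE 0.27) at E10 and -0.52 (SE 0.27) at E10.5. Ncl differed by -0.22 (SE 0.20) on 1415773_at and by -0.10 to -0.01 on its other 4 probe sets. On 1415773_at the difference was -0.09 when the second labelled-null E10 array was dropped, -0.009 when the first wild-type one was, and -0.58 with Eif2s3y as a covariate. No difference between the stages in the labelled-null effect passed for any of the 22 probe sets, 3 of Ptn among them, or for any probe set of the array (limma, 0%, with 541 of 26218, or 2.06%, at an unadjusted p under 0.05, and 0 with a trended, robust variance). For Ptn that interaction was 0.26 (SE 0.25) on 1416211_a_at and 0.09 (SE 0.31) on 1448254_at, both with a limma adjusted p of 1.

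In 2B1 cells, 20 probe sets of the 8 genes other than Ptn were tested, and limma called 0 of them and 0% of all 26202 probe sets. At an unadjusted p under 0.05 there were 3 of the 20, all of Sdc2, where 11.1% of all probe sets (2910) were under that value. With a trended, robust variance 0 probe sets of the array passed as well. Mdk was at 6.02 and 6.23 with Dlx5 and at 6.96 and 6.32 with the empty vector. Its difference of -0.52 (SE 0.24, limma adjusted p = 0.452) rested largely on vector replicate 1, and was -0.20 without that culture and -0.83 without vector replicate 2. The differences of Mdk and of Ptn 1416211_a_at and 1448254_at thus had opposite signs in 2B1 cells. That of Mdk did not pass, and Ptn was given no test there.

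The remaining genes in 2B1 cells differed by less. Sdc3 was at 11.91 and 11.86 with Dlx5 and at 12.19 and 12.33 with the empty vector on 1450027_at, with the cultures apart, as for the 19.1% of all probe sets that were lower with Dlx5 without overlap, and a difference of -0.38 (SE 0.16, limma adjusted p = 0.450). Its other 2 probe sets gave -0.13 and -0.08. The Sdc1 probe set 1437279_x_at was at 10.30 and 10.31 with Dlx5 and at 10.57 and 10.70 with the empty vector (-0.33, SE 0.16, limma adjusted p = 0.460). Of the 4 Sdc1 probe sets all had negative differences, down to -0.33. Ptprz1 (-0.33, SE 0.17), Alk (0.01, SE 0.16), the Sdc4 probe sets (-0.17 and 0.30) and the 5 Ncl probe sets (-0.19 to 0.04) did not pass either.

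**Figure D3:**
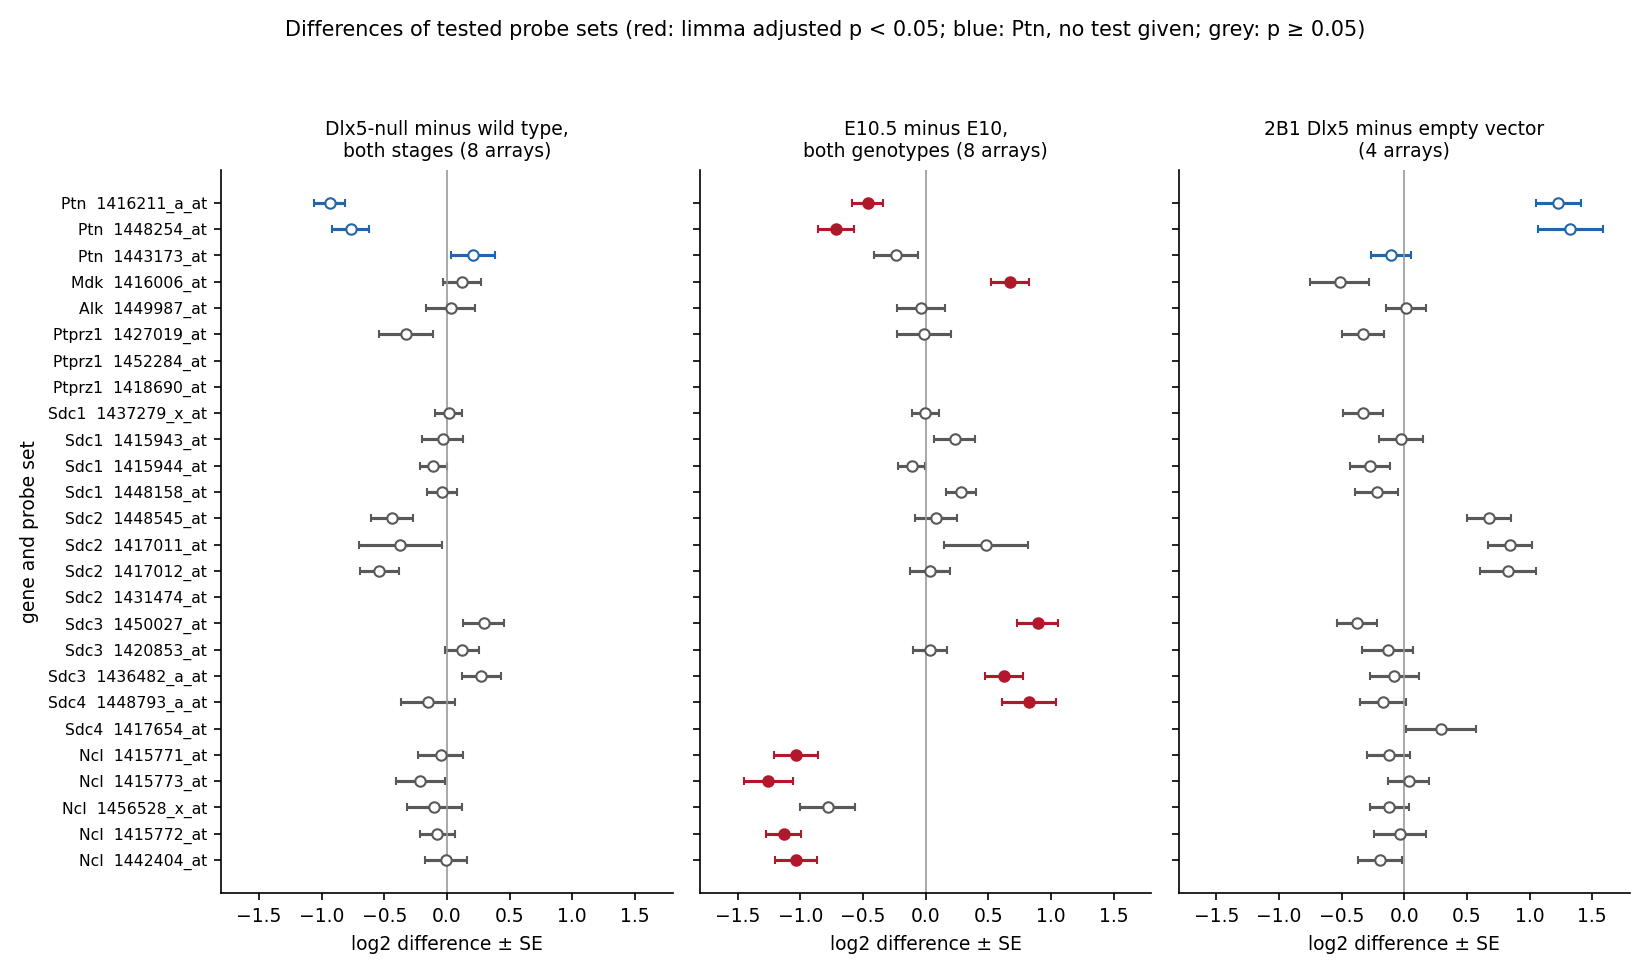
Log2 differences with standard errors of every tested probe set of the 9 genes, for labelled-null minus wild-type vesicles, E10.5 minus E10 vesicles, and Dlx5 minus empty-vector 2B1 cells; filled red points had a limma adjusted p under 0.05, blue points are Ptn differences given with no test, and rows without a point were under the limit on dim probe sets. Ptn 1416211_a_at and 1448254_at, the tested Sdc2 probe sets and Ncl 1415773_at are negative in the left panel and positive in the right. Ptn 1443173_at, Mdk, Sdc3 and Sdc1 1437279_x_at have the reverse signs. All 10 red points are in the stage panel.

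Between E10 and E10.5, a contrast that was not used to choose the genes, 10 of the 22 tested probe sets passed (limma), 4 higher and 6 lower at E10.5. Over the whole array 12.1% of probe sets passed, 6.48% higher and 5.59% lower. Ncl and Ptn fell, and Mdk, Sdc3 and Sdc4 rose. The 10 calls are of 5 genes, and 4 of them are probe sets of Ncl, so they are not 10 independent results. Alk, Ptprz1, Sdc1 and Sdc2 had no call. The levels of Eif2s3y and Xist given above also varied among the arrays of this contrast, which was not fitted with Eif2s3y as a covariate.

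Ncl had the largest stage difference of the 9 genes. On 1415773_at it was at 9.51 and 9.52 in labelled-null and at 9.32 and 9.50 in wild-type vesicles at E10.5, against 10.61 and 10.29 in labelled-null and 11.34 and 10.63 in wild-type vesicles at E10. Every E10.5 array lay under every E10 array, and the fall was 1.26 on the log2 scale (SE 0.20, limma adjusted p = 0.00701), or 2.39-fold. The probe sets 1415771_at, 1415772_at and 1442404_at fell by 1.04, 1.13 and 1.03 (limma adjusted p = 0.00967, 0.00349 and 0.00816). The last, 1456528_x_at, was lower by 0.78 and just missed the threshold (SE 0.22, limma adjusted p = 0.0503). The 4 calls held whichever single array was dropped and without both E10 replicate 1 arrays, where the differences of the 4 ran from -1.07 to -0.80.

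Ptn and Mdk moved in opposite directions between the stages. From the values above, Ptn was lower at E10.5 than at E10 within each genotype, without overlap, on 1416211_a_at and 1448254_at. The differences were -0.46 (SE 0.12, limma adjusted p = 0.0421) and -0.72 (SE 0.14, limma adjusted p = 0.0169), and 1443173_at gave -0.24 (SE 0.17, limma adjusted p = 0.407). Mdk was higher at E10.5 in each genotype, also without overlap (27.0% of all probe sets had no overlap in 1 direction in both genotypes), by 0.67 (SE 0.15, limma adjusted p = 0.0259). For 1416211_a_at the call was lost with any single array left out other than labelled-null E10 replicate 1 (adjusted p = 0.0531 to 0.154), and with arrays centred on their medians (0.100). For 1448254_at it was lost without the first labelled-null E10 array (0.0513), the second labelled-null E10.5 array (0.0559) or either wild-type E10.5 array (0.0799 and 0.0535). For Mdk it was lost without labelled-null E10 replicate 1 (0.0741) or any single E10.5 array (0.066 to 0.105). Without both E10 replicate 1 arrays the difference of Mdk was 0.44 (adjusted p = 0.0333), and those of Ptn were -0.58 and -0.52 (0.0164 and 0.029).

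Of the syndecans, Sdc3, found on neurons and their precursors, rose by 0.89 on 1450027_at (SE 0.17, limma adjusted p = 0.0124) and by 0.63 on 1436482_a_at (SE 0.15, limma adjusted p = 0.0328). The values of 1450027_at given above lay between 11.71 and 11.78 at E10.5 and at 11.41 or less at E10. The third probe set, 1420853_at, gave 0.04 (SE 0.14). Sdc4, a syndecan of cell adhesions, was at 7.11 and 6.83 in labelled-null and at 7.54 and 7.44 in wild-type vesicles at E10.5, against 6.23 and 6.80 in labelled-null and 6.6 and 6.0 in wild-type vesicles at E10. The stages did not overlap within either genotype, though labelled-null E10.5 replicate 2 was only just over labelled-null E10 replicate 2, and the rise was 0.82 (SE 0.21, limma adjusted p = 0.0394).

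The calls of Sdc3 and Sdc4 depended on single arrays. That of Sdc3 1450027_at was lost without either wild-type E10.5 array (adjusted p = 0.061 and 0.0561). That of 1436482_a_at was kept only without the second labelled-null array of either stage, and was otherwise at 0.0541 to 0.121, and at 0.0544 with arrays centred. That of Sdc4 was kept only without labelled-null E10 replicate 2 and was otherwise at 0.0523 to 0.139. Without both E10 replicate 1 arrays the differences were 0.72 (0.0346) and 0.49 (0.0891) for Sdc3 and 0.83 (0.0855) for Sdc4.

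**Figure D4:**
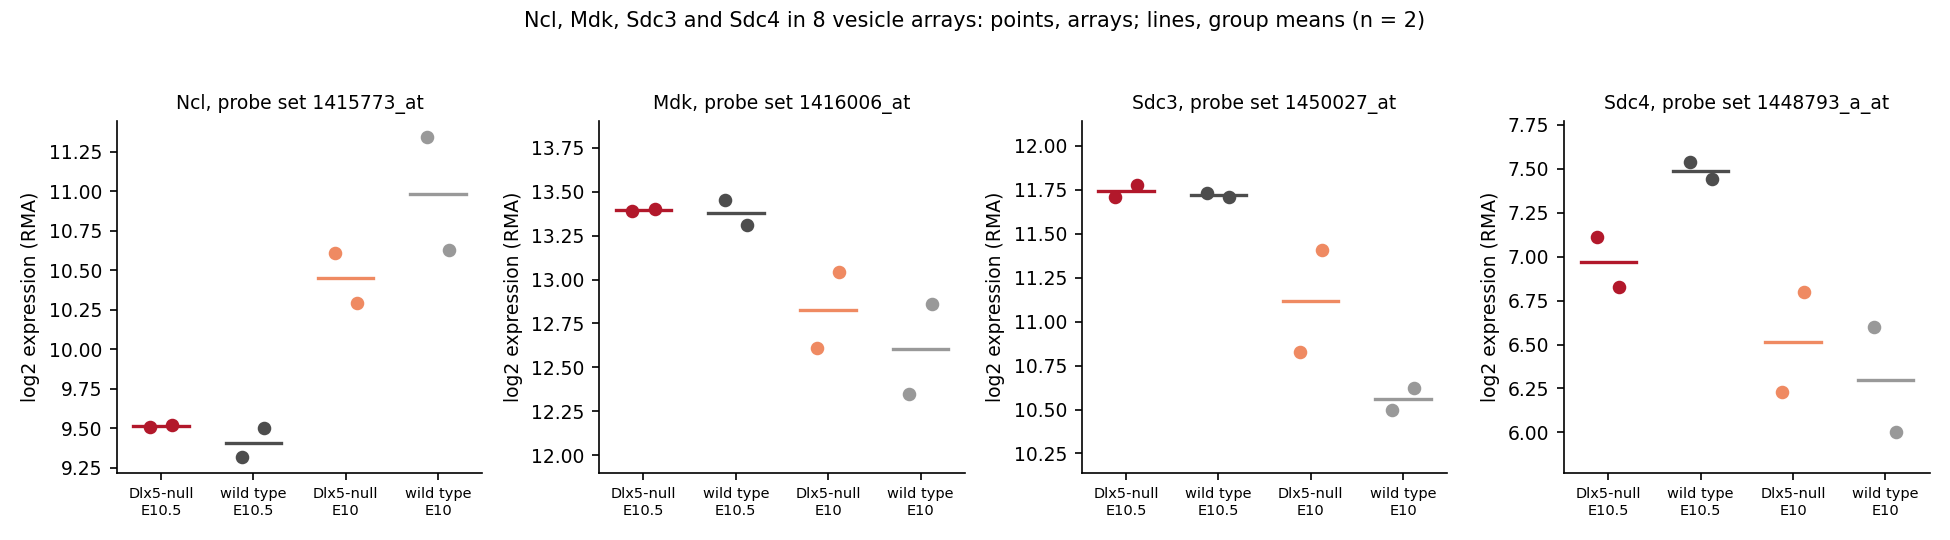
Log2 expression (RMA) of Ncl, Mdk, Sdc3 and Sdc4 on the probe sets with the largest stage difference of each gene, in the 8 vesicle arrays, with points for arrays and lines for group means (n = 2), on separate vertical axes. Ncl is lower and the other 3 genes are higher at E10.5 than at E10 in each genotype.

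Within wild-type vesicles alone 4 of the 22 probe sets passed, where 1.46% of all probe sets did, namely Sdc3 1450027_at (1.16, limma adjusted p = 0.0477) and Ncl 1415771_at, 1415772_at and 1415773_at (-1.31, -1.31 and -1.58, limma adjusted p = 0.0469, 0.0311 and 0.0356). Within labelled-null vesicles 0 of the 22 passed in limma, where 0.0763% of all did, and 7 were at an unadjusted p under 0.05, as were 13.5% of all. With a trended, robust variance 137 probe sets of the whole array passed there. The 4 probe sets called in wild type gave 0.63, -0.77, -0.96 and -0.94 there. Those stage differences are not shown to differ between the genotypes, since the interaction did not pass for any of them. Cell type markers also moved with stage. The mean of 8 blood markers was 9.75 to 9.76 in labelled-null and 8.80 to 8.84 in wild-type vesicles at E10.5, against 7.54 to 8.10 in labelled-null and 7.48 to 8.11 in wild-type vesicles at E10. That of 10 neuroblast and neuron markers was 8.17 to 8.31 in labelled-null and 7.93 in wild-type vesicles at E10.5, against 7.24 to 7.48 in labelled-null and 6.81 to 7.15 in wild-type vesicles at E10. Of 9 endothelial markers all were higher at E10.5 and 3 were called, among them Tie1 (1.49, limma adjusted p = 0.00213). Of 15 mesenchyme markers 12 were higher and 5 were called, among them Dcn (1.54, limma adjusted p = 7.61e-04). Blood markers had 5 of 7 called higher, and neuron markers 6 of 10 called higher and 1 lower. Of 14 otic epithelial markers 11 were higher (median 0.435), with 3 called higher and 2 lower, among them Oc90 (1.585) and Pax8 (-1.06). Over all probe sets 6.48% were called higher and 5.59% lower. The part of these cells in the stage differences was not tested.

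Further genes of the pathway were read on the brightest probe set of each. Of 15 tested receptors and partners of the growth factors, 2 rose and 1 fell at E10.5, where 6.48% of all probe sets were called higher and 5.59% lower. They were the integrin genes Itgb3 (1.49, SE 0.13, limma adjusted p = 0.00136) and Itgav (0.77, SE 0.19, limma adjusted p = 0.0353) and the lipoprotein receptor gene Lrp8 (-0.62, SE 0.14, limma adjusted p = 0.0228). Their products form an integrin and a receptor of the low-density lipoprotein receptor family. The median of the list was 0.05. The receptor phosphatase gene Ptprs had 0.68 (limma adjusted p = 0.0631). Of 11 syndecan partners and sheddases, Gipc1, encoding an adaptor protein that binds syndecan-4 (1.49, SE 0.28, limma adjusted p = 0.0129), and the membrane metalloprotease gene Mmp14 (1.37, SE 0.27, limma adjusted p = 0.0169) rose, and the protease gene Adam10 fell (-0.51, SE 0.11, limma adjusted p = 0.0242). The median of that list was -0.04, and its 3 calls of 11, like the 3 of 15 before, stand beside 12.1% of all probe sets.

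The sugar chains that bind both factors are made by enzymes whose genes moved in both directions between the stages. Of 24 tested genes of heparan sulfate synthesis, 2 rose and 3 fell (median 0.20), beside 12.1% of all probe sets called in either direction. Those that rose were the sulfotransferase genes Hs3st6 (0.93, SE 0.16) and Hs6st1 (0.60, SE 0.16), and those that fell were the sulfotransferase genes Hs3st1 (-0.47, SE 0.12) and Hs2st1 (-0.46, SE 0.11) and the epimerase gene Glce (-0.41, SE 0.10). Of 11 genes of chondroitin sulfate synthesis 3 rose and 0 fell in limma (median -0.02, 5 at an unadjusted p under 0.05, as were 29.3% of all probe sets), the polymerizing factor genes Chpf (0.91, SE 0.16) and Chpf2 (0.66, SE 0.17) and the sulfotransferase gene Chst12 (0.80, SE 0.21). Their adjusted p-values in limma were between 0.00958 (Chpf) and 0.0435 (Hs6st1). None of the 5 tested glypicans passed in limma, although 3 were at an unadjusted p under 0.05, Gpc4 with 0.70, Gpc1 with 0.49 and Gpc3 with -0.32. The median over all probe sets was 0.

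In the labelled-null contrast over both stages limma called 0 genes of these 5 lists (3 of 66 entries, with Gpc2 in 2 lists, had an unadjusted p under 0.05, as did 4.05% of all probe sets). The largest value of each list, in either direction, was that of the integrin gene Itga4 (-0.58, SE 0.21), Gpc2 (0.38, SE 0.20), Hs6st2 (0.37, SE 0.14), Mmp14 (0.28, SE 0.27) and Chst12 (-0.27, SE 0.21). In 2B1 cells 0 passed as well (7 of 69 entries at an unadjusted p under 0.05, as were 11.1% of all), with Ust (-0.67, SE 0.16), Chpf2 (-0.64, SE 0.16), Glce (-0.59, SE 0.17) and Extl2 (0.59, SE 0.24) as the largest values among enzymes of chain synthesis. No glypican or receptor of the lists differed by more than Gpc1 there, at -0.37 (SE 0.18).

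Over the 8 vesicle arrays the genes whose pattern was most like that of Ptn 1416211_a_at, of 13645 genes, were Pard6b and Nedd4 (Pearson correlation 0.96 each), Ahr, Zc3h13 and Dkk2 (0.96 each). The arrays share stage and genotype, so the correlations are a description. In the labelled-null contrast the 5 differed by -0.19 to -1.17, with Dkk2, a secreted Wnt modulator gene, the lowest. Since the 5 were picked for their likeness to Ptn in these same arrays, negative differences were to be had from that choice. In 2B1 cells Dkk2 differed by 0.41 and Nedd4, Ahr and Zc3h13 by -0.13 to -0.01, beside 1.23 for Ptn.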

How the data were processed

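The values were the log2 expression values per probe set that the authors deposited in 1 table of 12 arrays. Per the submitters' processing notes they were made with RMA in Affymetrix Expression Console, with no version stated. Vesicle and 2B1 arrays differ in their means and maxima, so each set was analysed alone. Of 45101 probe sets, 34958 are annotated to 1 gene, 932 to several and 9211 to none in the platform table. The dimmest 25% by mean in each set were left out, which left 26218 probe sets in vesicles (22 of the 26 described) and 26202 in 2B1 (23 of 26).

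Differences were fitted with limma 3.58.1 in R 4.3.3 (lmFit, eBayes), with genotype and stage as additive terms for the labelled-null and stage contrasts, 4 groups for the contrasts within a stage or genotype and for the interaction, and 2 groups in 2B1. P-values were adjusted by Benjamini-Hochberg over all probe sets tested, with a threshold of 0.05. The code was tested on simulated data. Of simulated log2 changes of 1 in size, limma called 0.0% in 2B1 and 0.0% for the interaction. For the labelled-null contrast it called 11.5% at E10, 24.5% at E10.5 and 57.0% over both stages. Counts of 0 in 2B1 and for the interaction therefore do not show that changes of that size were absent. The precision is limited by 2 arrays a group. Promoters came from RefSeq (GRCm38.p6), with 7 of 9 genes matched. All 9 genes are described, and other genes were read on their brightest probe set and named where they passed the test or had the largest value of their list. The 5 genes most like Ptn were taken by correlation. The genes, lists and tests were chosen with earlier results of these data known. The alternatives were no filter or a 50% filter, 1 probe set per gene, a trended and robust variance, the mean of the 2 stage contrasts, centring, a replicate block, Eif2s3y as a covariate, and leaving out arrays. The covariate and the mean of the stage contrasts were used for the labelled-null contrast over both stages alone.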

Additional observations from a re-analysis of the deposited data

Results flagged for a closer look

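In 2 of the 22 probe sets, and in 858 of all 26218 tested (3.27%), every labelled-null array lay on one side of every wild-type array at E10 and on the other side at E10.5. Sdc1 1437279_x_at was at 10.33 and 10.25 in labelled-null and 10.13 and 10.20 in wild-type vesicles at E10, and at 10.17 and 10.18 in labelled-null and 10.26 and 10.29 in wild-type vesicles at E10.5. Its labelled-null effect at E10.5 minus that at E10 was -0.225 (SE 0.21, limma adjusted p = 1). Ncl 1415773_at was lower in labelled-null arrays at E10 and higher at E10.5, with a difference between the effects of 0.640 (SE 0.35, limma adjusted p = 1). Neither interaction passed the test, and both probe sets were picked out by this pattern.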

How the results depend on the processing

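With 2 arrays a group, counts of calls depended strongly on the setting. The labelled-null contrast over both stages had 4 calls, against 1 with the 50% filter, 10 with a trended, robust variance, 2 with arrays centred (0 of the 2 higher, against 1 of the 4), 2 with the replicate block, 0 with Eif2s3y as a covariate (2676 at an unadjusted p under 0.05), 34 without both E10 replicate 1 arrays, and 0 to 16 with single arrays left out. At E10 alone it had 0, against 4 without both E10 replicate 1 arrays and 0 to 2 with single arrays left out. At E10.5 alone it had 1, against 0 with the 50% filter, 2 with the trend, 3 with the replicate block and 0 to 4 with single arrays left out. The interaction had 0 calls in limma under every setting run. The stage contrast had 3164, against 1965 centred and 761 to 5512 with single arrays left out. Within wild type it had 384, against 752 with the trend, 102 centred and 0 to 1210 with single arrays left out. Within labelled-null it had 20, against 6 with the 50% filter, 3 with 1 probe set per gene, 137 with the trend (40.1% higher, against 50.0%), 11 centred and 0 to 135 with single arrays left out.

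In 2B1 cells the replicate block gave 347 calls against 0, Sdc2 1417011_at and 1417012_at among them (adjusted p = 0.0304 and 0.0366), and single cultures left out gave 0 to 13. The replicate numbers were not taken as pairs: deviations of same-numbered arrays correlated at 0.66 between the E10 genotypes, at -0.46 to 0.03 in the other vesicle pairs and at -0.11 in 2B1. The crossed pairing of 2B1 cultures, chosen after seeing the data, gave 0 calls in limma (3182 at an unadjusted p under 0.05).

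Of 44 differences given singly, 285 of 299 values under settings that kept single arrays held their direction and their side of the threshold, and 5 turned. With single arrays left out 258 of 296 did so, 31 lost and 2 gained a call, and 5 turned. With Eif2s3y as a covariate Ptn 1443173_at turned to -0.049 and Sdc2 1417011_at to 0.18 in the labelled-null contrast. Without both E10 replicate 1 arrays, chosen after seeing the data, the stage differences of Ptn 1443173_at, Sdc1 1415943_at and Sdc2 1417011_at turned to 0.032, -0.003 and -0.18. With single arrays left out, the labelled-null difference of Mdk ran from -0.005 to 0.20, the interaction of Ptn 1448254_at from -0.13 to 0.31, and the 2B1 difference of Sdc4 1417654_at from -0.13 to 0.72. The cause was not tested.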
